A study of Cricetulus griseus with 3 samples.

Results

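The genes described here encode actin, the proteins that bind, nucleate, cut and crosslink it, the myosins, and the proteins of intermediate filaments. They were picked by the letters of their gene symbols: a spot belonged if its 1 gene symbol began with Act (followed by a, b or g), Actn, Actr, Arpc, Tpm (followed by a digit), Myl, Myh, Myo (followed by a digit), Fln (followed by a, b or c), Cfl, Pfn, Tmsb, Capz, Krt, Lmn, Cnn, Tagln, Fscn, Gsn or Dstn, or was Vim. This gave 116 spots for 65 genes, of 16928 tested spots and 8146 genes with a name of their own on the array. Of these 65 genes, 4 matched by letters alone and encode no filament protein (Cflar, Cnnm1, Cnnm2 and Krtcap2), which left 110 spots and 61 genes. No profilin spot was found by the rule.

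The study set S-1 cells against DAPT-treated CHO cells, 2 lines of Chinese hamster ovary origin, to ask how the activity of γ-secretase, the membrane protease that cuts Notch and the amyloid precursor protein, bears on gene transcription. S-1 cells overexpress the γ-secretase subunits PS1, NCT-GST, Flag-Pen2 and Aph1-a2-HA and, by a mark in the study, also the amyloid precursor protein. They came from the γ-30 line, itself made from the parental CHO line, and were kept in G418, puromycin, zeocin, hygromycin and blasticidin and given 0.05% DMSO for 24 h. The parental CHO cells carried no construct and were given 10 µM DAPT, a γ-secretase inhibitor, in 0.05% DMSO for 24 h. The constructs, the passage history, the selection drugs and the inhibitor thus differ together and cannot be told apart. Each of 3 arrays, from independent experiments, set the RNA of an S-1 culture against that of a DAPT-treated CHO culture on mouse cDNA clones, with S-1 RNA in Cy3 on arrays 1 and 2 and in Cy5 on array 3. Values are log2 ratios of S-1 over DAPT-treated CHO, so a negative value is lower in S-1 cells, and a gene's value is the mean over its spots. These are ratios of bulk RNA, in which fewer cells of a type and less RNA per cell cannot be told apart, and no absolute level of a gene can be read from them.

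Actin filaments are polymers of actin subunits that a cell builds and takes apart at its edge and along its cables. The Arp2/3 complex starts new branches, thymosins hold free monomers in reserve, gelsolin and the cofilin family cut filaments, filamin and α-actinin tie them together, and tropomyosin lies along them and sets which other proteins can bind. Myosins walk on actin or, as bipolar filaments of myosin 2, pull on it. Intermediate filaments form a separate, more lasting network, which is built from vimentin in mesenchymal cells, from keratins in epithelia and from lamins under the nuclear envelope. CHO cells grow as adherent cells of fibroblast to epithelial shape, and which of these networks they hold cannot be checked here, since a ratio shows no level.

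On each array the median log2 ratio of the 116 spots was below that of the tested spots, at −0.09 against 0.02 on array 1, −0.13 against 0.01 on array 2 and −0.16 against 0.00 on array 3. Their SD was 0.42, 0.45 and 0.50 on arrays 1, 2 and 3, against 0.464, 0.504 and 0.525 over the tested spots. The arrays ordered the spots alike, with Pearson's r of 0.962 for arrays 1 and 2, which share their dyes, and of 0.910 and 0.908 for array 3 against arrays 1 and 2, as a description over 116 spots that share these arrays. Over all tested spots r was 0.962, 0.878 and 0.892 for the same pairs, so the likeness was general to the arrays. Of the 116 spots, 104 held clones of the main collection of the array (named here H, the first letter of their clone names) and 12 held clones of a smaller one (named P). The letters were read from each spot's place in the print pattern. Over the whole array 19.3% of P spots and 6.76% of H spots were called higher, so P spots are named beside the values that rest on them.

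Most of the members that passed the test were lower in S-1 cells. Of the 65 genes, 18 fell in S-1 cells and 5 rose, while 42 did not pass (limma's moderated test over all genes, Benjamini-Hochberg adjusted p under 0.005). The 18 are 27.7% of the members, where 10.3% of all 8146 genes fell, and the 5 are 7.69%, where 12.4% of all genes rose (22.6% of all genes passed in either direction). By spot, 35 of 116 fell (30.2%, against 8.52% of all tested spots) and 7 rose (6.03%, against 9.68%), where 18.2% of all tested spots passed. Of these 35 spots, 11 were clones of the 2 actin genes, and 9 of those were named Actb. The median log2 ratio was −0.07 over the member genes and 0.01 over all genes, and 66.2% of the member genes lay below 0, against 48.1% of all genes. On H spots alone, 31 of 104 member spots fell and 4 rose, where 8.52% of all H spots fell and 6.76% rose. On P spots, 4 of 12 fell and 3 rose, where 12.8% of all P spots fell. With H clones alone, 18 of 60 genes fell and 3 rose, where 18.7% of all genes passed in either direction. The genes were chosen by name and some share sequence, so these shares are a description and not a test. The counts depended on which arrays were in the fit, as did the share of all genes that passed. Without array 1, 6 genes fell and 2 rose, where 8.26% of all genes passed. Without array 2, 5 fell and 1 rose, where 5.97% did. Without array 3, which leaves the arrays that share their dyes, 24 fell and 5 rose, where 40.5% did.

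**Figure D1:**
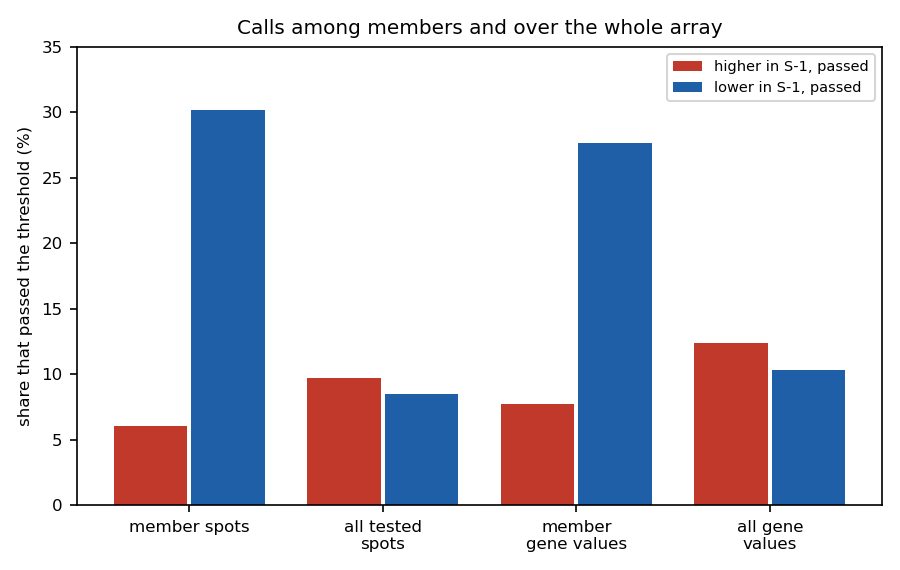
Share of features that passed the threshold (y axis, percent) among member spots, all tested spots, member gene values and all gene values, with red bars for features higher in S-1 cells and blue bars for those lower. Among the members the blue bar is the taller one, at 30.2% of spots and 27.7% of genes, while over the whole array the red bar is, at 9.68% of spots and 12.4% of genes. The whole array includes N spots and spots without a collection letter, which hold no member. Over H spots alone 8.52% fell and 6.76% rose.

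All 42 spots that passed had the same sign on the 3 arrays, and the smallest of them in size was 0.35 on the log2 scale. The largest change in size was a fall by 1.91, on a filamin A spot. The SD over arrays of the spots that passed ran from 0.02 to 0.29, and that of spots that did not pass reached 0.45. Most genes lay near 0: 38 of 65 were between −0.25 and 0.25, 3 fell by over 1 and 1 rose by over 1.

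**Figure D2:**
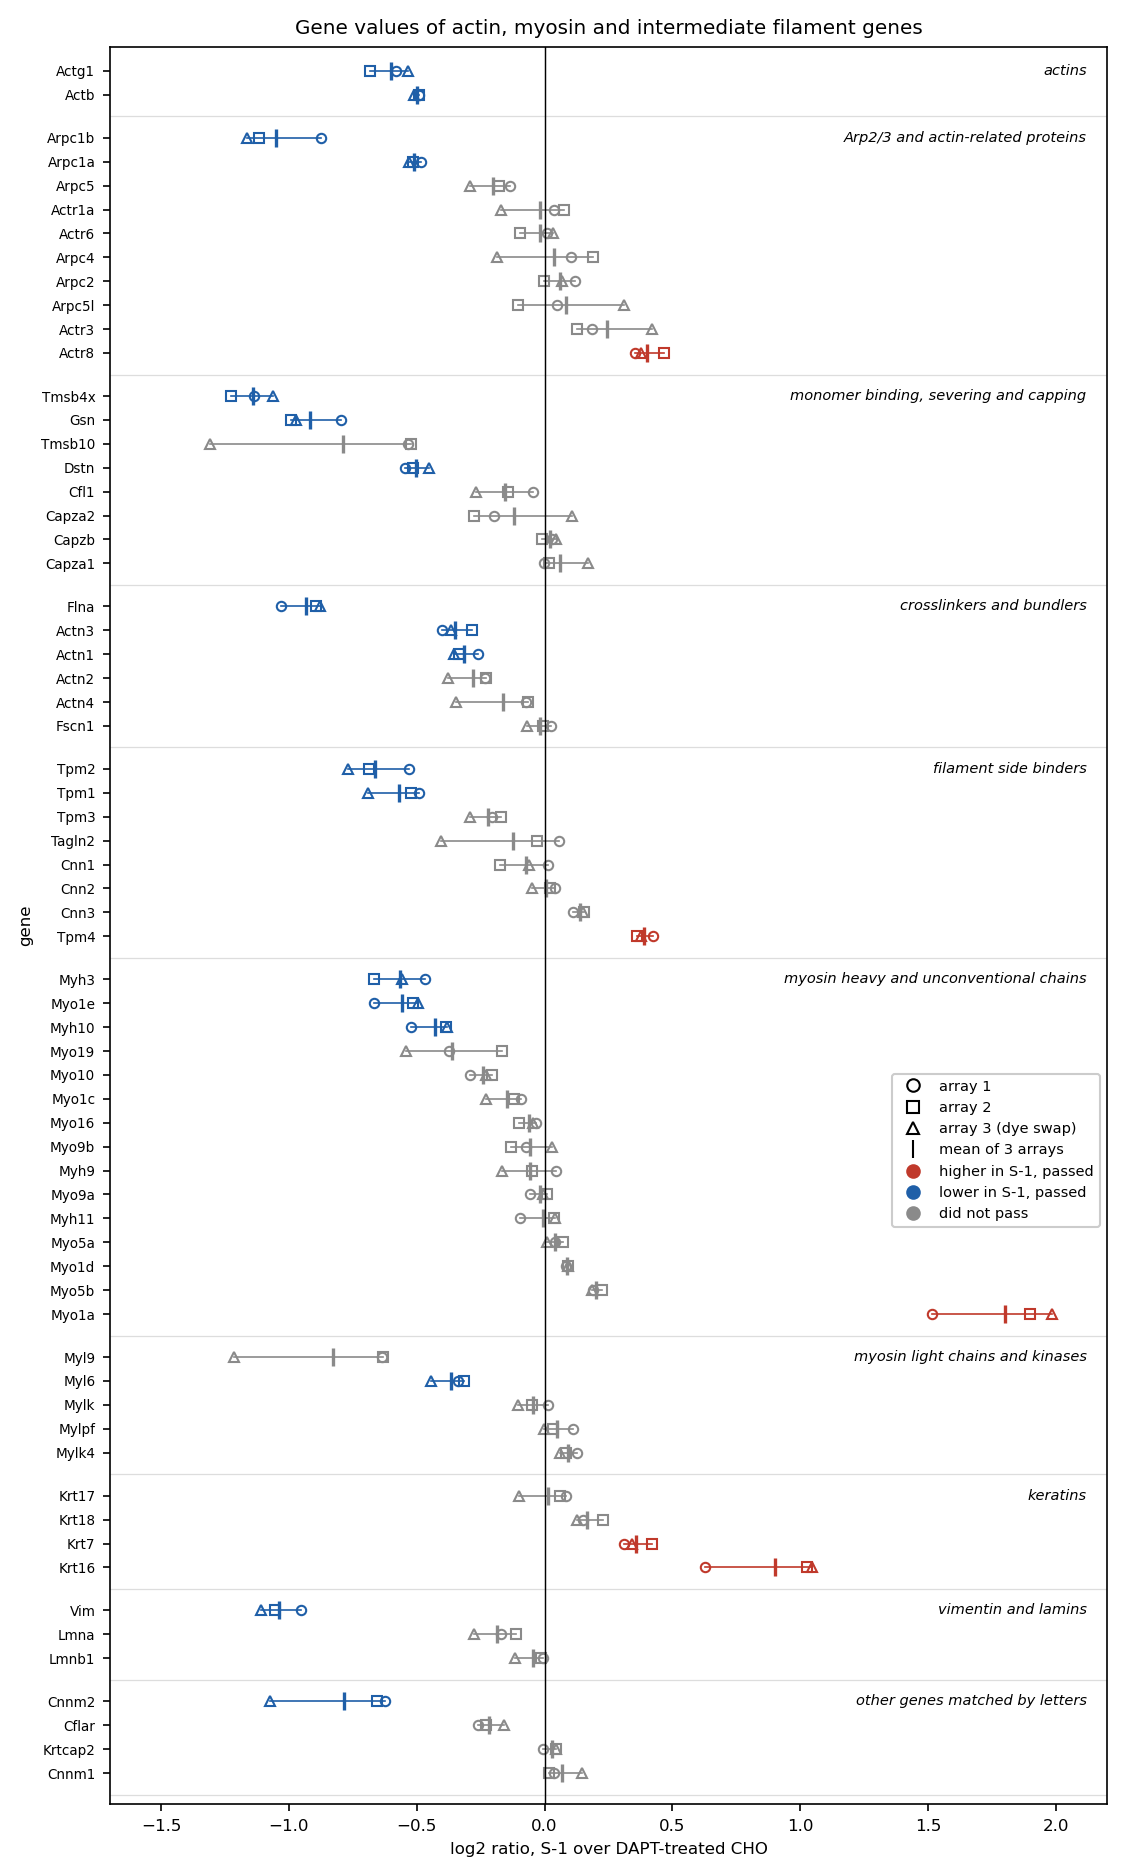
S-1 over DAPT-treated CHO as a log2 ratio (x axis) for each of the 65 genes, grouped by role, with a circle, square and triangle for arrays 1, 2 and 3, a tick for their mean and a line for their range. Blue genes fell, red genes rose and grey genes did not pass. The actins, thymosin β4 (Tmsb4x), Gsn, Flna and Vim lie left of 0 on all 3 arrays, and Myo1a stands alone on the right at 1.80.

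Both actin genes on the array fell. Actb, the gene of the cytoplasmic β-actin, was at −0.49, −0.49 and −0.51 on arrays 1, 2 and 3, a mean of −0.50 ± 0.01 (SD, n = 3), or 0.708 of its value in DAPT-treated CHO cells (adjusted p = 8.72e-04). Actg1, the gene of cytoplasmic γ-actin, was at −0.58, −0.68 and −0.53, a mean of −0.60 ± 0.08, or 0.66 of the DAPT-treated CHO value (adjusted p = 8.82e-04). Neither gene came near 0 on any array. Actb was measured by 10 spots, more than any other member. Of these, 9 fell, with means from −0.70 to −0.42, a median of −0.54 and adjusted p-values from 6.12e-04 to 0.0041, and their single array values ran from −0.80 to −0.34. The 10th spot was at 0.05, 0.01 and 0.02 (mean 0.03, adjusted p = 0.646), so 1 clone with the name Actb did not follow the others. The 2 spots of Actg1 were at −0.75 and −0.44 and both fell. The coding sequences of the cytoplasmic actins are nearly identical, and a cDNA clone of either can bind RNA of both, so the separate shares of the genes are uncertain. β-actin was also the gene to which the study scaled its real-time PCR.

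Of the Arp2/3 complex, the subunits of 1 kind fell and the rest did not pass. Arpc1b was at −0.88, −1.12 and −1.16 (mean −1.05 ± 0.15, 0.483 of the DAPT-treated CHO value, adjusted p = 4.64e-04, 1 spot). Its paralog Arpc1a was at −0.48, −0.51 and −0.53 (mean −0.51 ± 0.02, adjusted p = 8.59e-04), with both of its spots at about that value, −0.52 and −0.50. Both encode the same WD-repeat subunit of the complex, of which a complex holds 1 form or the other. On each array Arpc1b lay below Arpc1a, a distance that was not tested. The other subunits measured ranged from −0.20 (Arpc5, adjusted p = 0.0273) to 0.24 (Actr3, the gene of Arp3, adjusted p = 0.0397), with Arpc2 at 0.06, Arpc4 at 0.04 and Arpc5l at 0.09. In all, 2 of 7 subunit genes fell (28.6%, against 10.3% of all genes) and 0 rose (against 12.4%), and their median was 0.04. Member genes given here or below with a value that did not pass, apart from Krt18, Myo1d and Tpm3, were named after their values were seen.

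Of the 3 actin-related proteins that work elsewhere, 1 rose, where 12.4% of all genes rose. Actr8, the gene of Arp8, a nuclear subunit of the INO80 chromatin remodeller, was at 0.35, 0.47 and 0.38 (mean 0.40 ± 0.06, 1.32 times the DAPT-treated CHO value, adjusted p = 0.00228, 1 H spot). Actr1a, the dynactin filament subunit, and Actr6, another nuclear actin-related protein, were each at −0.02 (95% intervals −0.18 to 0.14 and −0.14 to 0.11, not adjusted).

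Among proteins that bind monomers, cut filaments or cap their ends, 3 of 8 genes fell and 0 rose, with a median of −0.33. The 3 are 37.5% of the 8, where 10.3% of all genes fell and 12.4% rose. Tmsb4x, the gene of thymosin β4, which sequesters actin monomers, was the lowest of all 65 genes, at −1.13, −1.23 and −1.06 (mean −1.14 ± 0.08, 0.454 of the DAPT-treated CHO value, adjusted p = 1.58e-04, 1 spot). Gsn, the gene of gelsolin, a calcium-activated severing and capping protein, was at −0.80, −0.99 and −0.97 (mean −0.92 ± 0.11, 0.529 of the DAPT-treated CHO value, adjusted p = 3.64e-04). Its H spot at −1.12 and its P spot at −0.72 both fell, so the call did not rest on 1 collection. Dstn, the gene of destrin, a member of the cofilin family, was at −0.55, −0.51 and −0.45 (mean −0.50 ± 0.05, adjusted p = 0.00104). Its relative Cfl1, non-muscle cofilin, had a mean of −0.15 ± 0.11 and did not pass (adjusted p = 0.0868). The capping protein genes did not pass either: Capza1, Capza2 (in part on a P spot) and Capzb were at 0.06, −0.12 and 0.02, over 6 spots of which none passed (0 of the 3 genes had an unadjusted p under 0.05).

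The second thymosin, Tmsb10, was at −0.53, −0.52 and −1.31, a mean of −0.79 ± 0.45, and did not pass (adjusted p = 0.0166). Its value in the dye-swapped array 3 was far below both others. It is the member with the widest spread between arrays.

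Of the crosslinking and bundling proteins, 3 of 6 genes fell and 0 rose, with a median of −0.30. The 3 are 50% of the 6, where 10.3% of all genes fell and 12.4% rose. Flna, the gene of filamin A, which joins filaments into a loose net and anchors them to membrane proteins, was at −1.03, −0.89 and −0.88 (mean −0.93 ± 0.08, 0.523 of the DAPT-treated CHO value, adjusted p = 2.63e-04). The narrow spread of this mean hides clones that differ more than those of any other member, by 1.83 between the lowest and the highest. The P spot was at −2.17, −1.60 and −1.97 (mean −1.91, adjusted p = 3.54e-04). One H spot was at −0.88, −0.94 and −0.58 (mean −0.80, adjusted p = 0.00173). The other H spot was at −0.04, −0.14 and −0.09 (mean −0.09, adjusted p = 0.205), and the mean of both H spots was −0.45. All 9 values of the 3 clones were below 0, while their size depended on the clone.

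The α-actinins, which hold actin filaments in bundles and, as Actn2 and Actn3, at the Z-discs of striated muscle, had 4 gene values below 0, of which 2 passed. Actn3 was at −0.40, −0.29 and −0.37 (mean −0.35 ± 0.06, adjusted p = 0.00345), and Actn1 at −0.26, −0.33 and −0.35 (mean −0.32 ± 0.05, adjusted p = 0.00438). The 3 clones of Actn1 were at −0.49, −0.42 and −0.04, and the first of them alone passed. With the median of the spots in place of the mean, Actn1 no longer passed (adjusted p = 0.00727). Actn2 had a mean of −0.28 (adjusted p = 0.0097), with an H spot at −0.45 that passed and a P spot at −0.10 that did not. Actn4 had a mean of −0.16 (adjusted p = 0.13) from H clones at −0.65 and 0.08 and a P clone at 0.08, of which none passed. Fscn1, the gene of fascin, which bundles filaments in filopodia, was at −0.02 (95% interval −0.13 to 0.10, not adjusted).

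The tropomyosins went in both directions. Tpm2 was at −0.53, −0.69 and −0.77 (mean −0.66 ± 0.12, 0.632 of the DAPT-treated CHO value, adjusted p = 0.00112) and its clones were at −0.75 and −0.58. Tpm1 was at −0.49, −0.52 and −0.69 (mean −0.57 ± 0.11, 0.674 of the DAPT-treated CHO value, adjusted p = 0.00148) and its clones were at −0.59 and −0.55. Tpm4 was at 0.42, 0.36 and 0.38 (mean 0.39 ± 0.03, 1.31 times the DAPT-treated CHO value, adjusted p = 0.00193, 1 H spot). Tpm1 and Tpm2 thus fell with both clones each and on every array, and Tpm4 rose on every array. Tpm3 was at −0.20, −0.17 and −0.29 (mean −0.22 ± 0.06) and did not pass (adjusted p = 0.0154). Its 4 clones lay close together, from −0.25 to −0.17. Where the fit held a dye coefficient Tpm3 passed, at −0.24 (adjusted p = 0.00133), but 44.9% of all genes passed in that fit, against 22.6% in the main one. The tropomyosin genes share long stretches of sequence, so that clones of 1 gene may also bind RNA of another, and this was not tested.

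The calponins and transgelin 2, which also lie along the filament, did not pass. Cnn1, the smooth muscle calponin, was at −0.07, Cnn2 at 0.00, Cnn3 at 0.14 and Tagln2 at −0.13. Of these 4 genes, 1 (Cnn3) had an unadjusted p under 0.05. Its 2 clones were at 0.33 and −0.06, and neither passed.

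**Figure D3:**
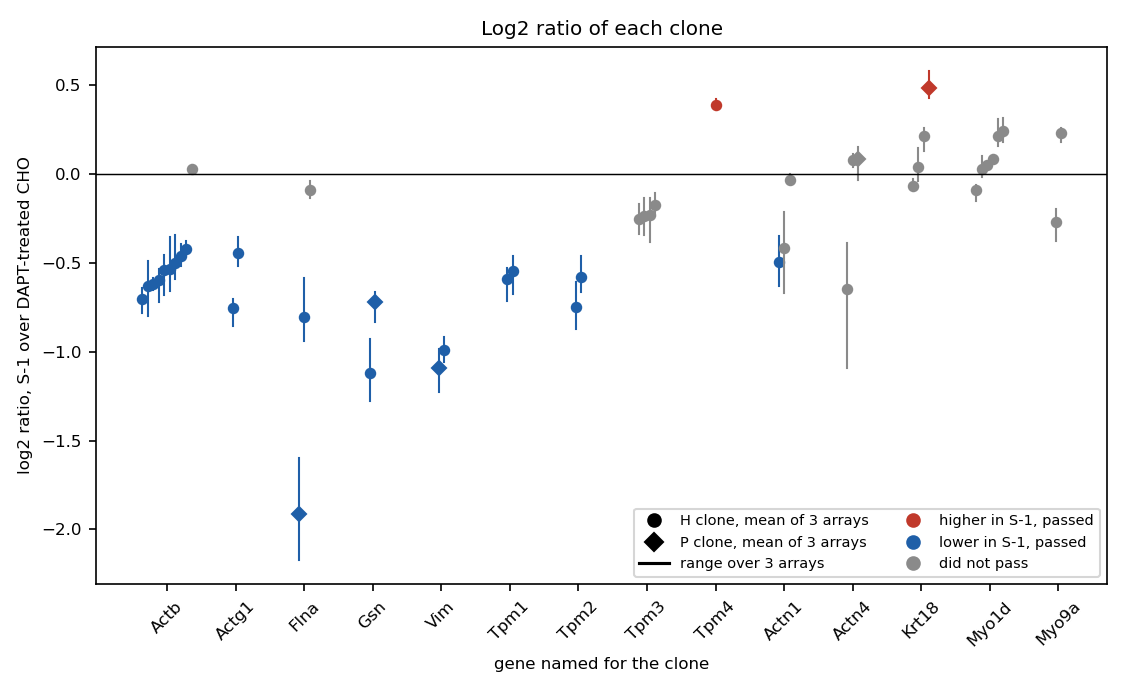
S-1 over DAPT-treated CHO as a log2 ratio (y axis) for each spot of 14 genes (x axis), as the mean of 3 arrays with a line for their range, circles for H clones and diamonds for P clones. Blue spots fell, red rose and grey did not pass. The 9 fallen Actb clones lie between −0.70 and −0.42 with a 10th at 0.03, and the 3 Flna clones spread from −1.91 to −0.09.

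Over all members, 30 genes had 2 or more spots. In 7 of them every spot passed in 1 direction, in 7 some passed and some did not, and in 16 none passed. No gene had spots that passed in both directions, while in 9 the lowest and the highest spot lay on opposite sides of 0. The median distance between the lowest and highest spot of a gene was 0.23, and after the 1.83 of Flna the next was 0.73. Of the 23 genes that passed, 12 rested on 1 spot, 7 that fell and all 5 that rose.

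Of the 15 genes of myosin heavy and unconventional chains, 3 fell and 1 rose, and their median of −0.06 was close to that of all members. These shares of 20% and 6.67% stand beside 10.3% and 12.4% of all genes. Myo1a, a class 1 myosin known from the brush border of gut epithelium, had the largest change of any member gene, at 1.51, 1.90 and 1.99 (mean 1.80 ± 0.25, 3.48 times the DAPT-treated CHO value, adjusted p = 2.78e-04). It was measured by 1 spot, of the P collection. Myo1e, a class 1 myosin with a long tail that binds membrane, was at −0.67, −0.52 and −0.49 (mean −0.56 ± 0.09, 0.679 of the DAPT-treated CHO value, adjusted p = 0.0013), with H clones at −0.61 and −0.51. Among the class 1 myosins, Myo1a and Myo1e thus lay on opposite sides of 0 on every array. The others of that class did not pass. Myo1c was at −0.15, and Myo1d was at 0.09 ± 0.00 (adjusted p = 0.142), from 6 clones between −0.09 and 0.24, none of which passed.

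Myosin 2 heavy chains pull on actin as bipolar filaments. Myh10, the heavy chain of non-muscle myosin 2B, was at −0.52, −0.39 and −0.38 (mean −0.43 ± 0.08, 0.742 of the DAPT-treated CHO value, adjusted p = 0.00237, 1 H spot). Myh9, that of non-muscle myosin 2A, was at 0.05, −0.05 and −0.16 (mean −0.06 ± 0.11, 95% interval −0.20 to 0.09, not adjusted) and did not pass. Its values lay on both sides of 0, and those of Myh10 did not. Myh3, the embryonic heavy chain of skeletal muscle, was at −0.47, −0.67 and −0.56 (mean −0.56 ± 0.10, adjusted p = 0.0014) on 1 P spot, and Myh11, the smooth muscle chain, was at −0.01, also on a P spot. Beside the muscle genes stand the muscle markers that lie outside the rule, of which 3 of 18 were measured and 1 fell while 2 rose: Tnnt1 at −0.70, Ttn at 0.47 and Myod1 at 2.60. Of all genes, 10.3% fell and 12.4% rose. The Myod1 spot belonged to the part of the array whose clones carry no collection letter, where many spots were called higher. With that part left out, 2652 of 16448 spots passed in either direction, against 3080 of 16928 with it. The part of these markers in the myosin values was not tested.

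The unconventional myosins of other classes move vesicles, organelles and membrane. Myo10, which walks into filopodia, was at −0.24 (adjusted p = 0.00963), and Myo19, a myosin of mitochondria, at −0.36 (adjusted p = 0.0185). Neither passed, though both were below 0 on each array. Myo5b, a carrier of recycling endosomes, had 1 clone at 0.38 that passed (adjusted p = 0.00382) and 1 at 0.02 that did not, for a gene value of 0.20 (adjusted p = 0.0148). The 2 clones of Myo9a were at −0.27 and 0.23 and gave a gene value of −0.02. Myo5a, Myo9b and Myo16 were at 0.04, −0.06 and −0.06. In all, 1 of the 11 unconventional myosins fell and 1 rose (9.09% each, against 10.3% and 12.4% of all genes).

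Of the light chains and their kinases, 1 of 5 genes fell (20%, against 10.3% of all genes) and 0 rose (against 12.4%). Myl6, the essential light chain of non-muscle and smooth muscle myosin 2, was at −0.34, −0.31 and −0.44 (mean −0.37 ± 0.07, 0.776 of the DAPT-treated CHO value, adjusted p = 0.00344). Myl9, a regulatory light chain of the same myosins, was at −0.64, −0.63 and −1.22 (mean −0.83 ± 0.34) and narrowly did not pass (adjusted p = 0.00591). As with Tmsb10, array 3 held the lowest value. Mylk, the light chain kinase, was at −0.05, its relative Mylk4 at 0.09 and Mylpf, a light chain of fast skeletal muscle, at 0.05.

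**Figure D4:**
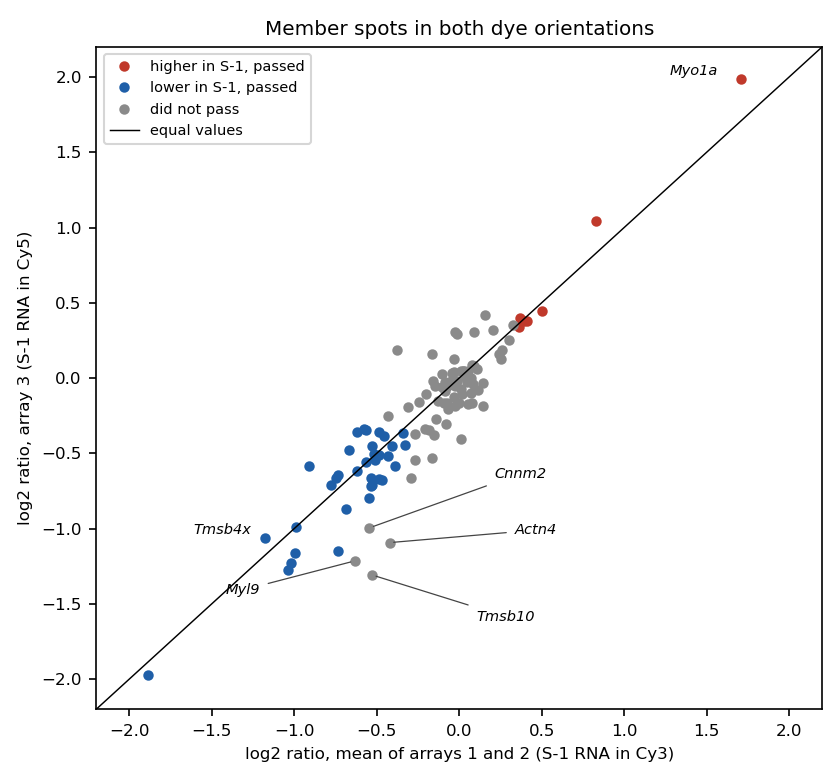
Log2 ratio of each of the 116 member spots on array 3, with S-1 RNA in Cy5 (y axis), against its mean on arrays 1 and 2, with S-1 RNA in Cy3 (x axis), and a line of equal values. Red and blue spots passed and grey spots did not. The named grey spots of Actn4, Cnnm2, Myl9 and Tmsb10 lie below the line, as does a second Cnnm2 spot that passed, at −1.15 on array 3.

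Spots with a large mean did not always pass. Those of Actn4, Cnnm2, Myl9 and Tmsb10 had means of −0.65, −0.69, −0.83 and −0.79, under −0.5, and did not pass. On all 4, array 3, the one with the dyes swapped, held the lowest value, at −1.09, −0.995, −1.22 and −1.31. Over the 116 spots the median difference of array 3 from the mean of arrays 1 and 2 was −0.03. With a dye coefficient in the fit, where 40.4% of all tested spots passed, all 4 passed. Those of Myl9 and Tmsb10 were then at −0.92, that of Cnnm2 at −0.77 and that of Actn4 at −0.76. That fit matches array 3 exactly, so a spot's own spread comes from arrays 1 and 2 alone. Those arrays lay close together on these spots, so their passing there is no separate evidence for the falls. With 1 array in the swapped orientation, the dye and that experiment cannot be told apart.

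Of the keratins, 2 of 4 genes rose in S-1 cells and 0 fell, and their median was 0.26. Krt16, a type 1 keratin of stressed and fast-growing epidermis, was at 0.63, 1.03 and 1.05 (mean 0.90 ± 0.24, 1.87 times the DAPT-treated CHO value, adjusted p = 0.00176) on 1 P spot. Krt7, a type 2 keratin of simple epithelia, was at 0.31, 0.42 and 0.34 (mean 0.36 ± 0.06, 1.28 times the DAPT-treated CHO value, adjusted p = 0.00321) on 1 H spot. Krt18, a type 1 keratin of simple epithelia, had a gene value of 0.17 ± 0.05 that did not pass (adjusted p = 0.0335). Its P spot rose, at 0.48 (adjusted p = 0.00213), while its H spots at −0.07, 0.04 and 0.21 did not pass. Krt17 was at 0.01 on a P spot. Spots with several keratin names were not counted, were not tested and went both ways. Those of Krt8 with Nlrp4e were at −0.21 and −0.31, and that of Krt5, Krt6a and Krt6b at −0.49. Those of Krt9, Krt13, Krt14, Krt15 and Krt19 were at 0.48 and 1.56. Of 14 epithelial markers outside the rule, 11 were measured, and 2 rose while 0 fell: the tight junction genes Cldn4, at 0.86 on P, and Cldn3, at 0.50 on H and P spots. The 2 are 18.2% of the 11, where 12.4% of all genes rose and 10.3% fell, and the median of the 11 was 0.05. The other 9 did not pass and ran from −0.16 (Jup) to 0.25 (Dsg2), with Epcam at −0.10. Of the 11, 4 had an unadjusted p under 0.05. The part of these markers in the keratin values was not tested.

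Vimentin fell. Vim was at −0.95, −1.06 and −1.11 (mean −1.04 ± 0.08, 0.487 of the DAPT-treated CHO value, adjusted p = 1.90e-04). Its H clone at −0.99 and its P clone at −1.09 gave nearly the same value, unlike the clones of Flna. The lamins, which line the nuclear envelope, did not pass: Lmna was at −0.19 (adjusted p = 0.0354) and Lmnb1 at −0.04 (95% interval −0.16 to 0.08, not adjusted). Among 20 further genes of intermediate filaments and the nuclear envelope, 9 were measured, of which 1 rose and 2 fell (11.1% and 22.2%, against 12.4% and 10.3% of all genes). Nes, the gene of nestin, a filament protein of progenitor cells, was at 0.82 over 4 spots, 1 each of H, P, N and the part without a letter. Plec, the gene of plectin, which ties intermediate filaments to actin and to adhesions, was at −0.78, and Sun1, a protein of the inner nuclear membrane, at −0.67.

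Beyond the genes of the rule, 53 of 67 listed regulators and partners of actin were measured. Of them, 7 rose and 7 fell, and their median was 0.00. Those that fell were the spectrins Sptan1 at −0.88 and Sptbn1 at −0.72 and adducin (Add1, H and P spots) at −0.43, which build the net under the membrane, vinculin (Vcl, H and P spots) at −0.86 and talin (Tln1) at −0.37 on a P spot, which link filaments to adhesions, Lima1, a bundling protein, at −0.49, and the scaffold Iqgap1 at −0.31. Those that rose were Was, an activator of the Arp2/3 complex in blood cells, at 0.97, the coronins Coro1b at 0.68 and Coro1a at 0.58 (the second on a P spot), the cofilin kinases Limk2 at 0.38 and Limk1 at 0.34, Svil at 0.31 on H and P spots and the bundling protein Lcp1 at 0.30. The 7 that fell are 13.2% of the regulators and the 7 that rose another 13.2%, against 10.3% and 12.4% of all genes.

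Of the 4 genes that the letters alone brought in, 1 fell, where 10.3% of all genes fell. Cnnm2, a magnesium transport protein, was at −0.62, −0.66 and −1.07 (mean −0.78 ± 0.25, adjusted p = 0.00317). Cflar, a regulator of cell death, was at −0.22 (adjusted p = 0.0151), and Cnnm1 and Krtcap2 were at 0.07 and 0.03. Without these genes, 17 of 61 fell and 5 rose (27.9% and 8.20%, against 10.3% and 12.4% of all genes).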

How the data were processed

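The authors hybridised RNA, amplified once, of S-1 and DAPT-treated CHO cells to 2-colour mouse cDNA arrays, read the scans with GenePix Pro 6.0, and applied print-tip lowess in R without background subtraction. What the authors deposited and what was analysed here are normalised log2 ratios, S-1 over DAPT-treated CHO, for every spot on each array. Intensities were not used here, so signal over background is not given and the number of arrays, 3, limits the precision. Hamster RNA was bound by mouse clones, which affects binding clone by clone.

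Control spots (736, told by their position) were left out. Spots, and genes as the mean of their spots, were tested against 0 with limma (version 3.58.1, R 4.3.3) and 1 coefficient, with empirical Bayes variances (3.05 and 2.96 prior degrees of freedom), Benjamini-Hochberg adjustment over all spots or genes, and the study's threshold of 0.005. Tables and figures were made with Matplotlib 3.10.9, SciPy 1.17.1, pandas 2.3.3 and NumPy 2.4.6 in Python 3.11.15. The fit was tested on simulated data. SDs are over 3 arrays. Gene names came from the platform annotation, and 60 of the 65 symbols are in the hamster annotation CriGri-PICRH-1.0. Spots with several names were not members.

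Named genes were up to 4 members of each role that passed, by size, members with 4 or more spots, Actb, Actg1 and Vim. The members, roles and lists were chosen with earlier results of these data known. Alternatives were a threshold of 0.05, centred or scaled arrays, quantile normalisation, dye as a coefficient, control spots included, unlisted spots left out, H clones alone, the median of a gene's spots, and each array left out.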

Additional observations from a re-analysis of the deposited data

How the results depend on the processing

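The 26 named genes kept their direction under each alternative that measured them. Centring, scaling or quantile normalisation of the arrays changed none of their calls and moved the median of all genes by less than 0.02, while the median of a gene's spots ended the call of Actn1 and the dye as a coefficient added Tpm3. Of the 23 genes that passed, 23 still did so without array 3, where 40.5% of all genes passed (22.6% with every array), 8 without array 1, where 8.26% did (Arpc1b, Flna, Gsn, Krt16, Myo1a, Tmsb4x, Tpm2 and Vim), and 6 without array 2, where 5.97% did (the same but for Krt16 and Tpm2). Of the 42 spots that passed, 42, 12 and 1 passed without arrays 3, 1 and 2, where 37.0%, 7.98% and 2.14% of all spots did (18.2% with every array). With each array left out, the count of member spots ran from 0 to 11 higher and from 1 to 45 lower, and that of genes from 1 to 5 higher and from 5 to 24 lower.

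The 7 spots higher in S-1 cells became 14 at a threshold of 0.05, where 39.8% of all spots passed, 14 with the dye as a coefficient (40.4%), 1 with the control spots in the fit (6.71%) and 4 of 104 with H clones alone (15.4%). The 35 lower spots became 12 with the control spots in the fit and 50 both at 0.05 and with the dye. The 5 higher genes became 9 at 0.05, where 46.2% of all genes passed, and 3 with H clones alone (18.7%), and the 18 lower genes became 29 with the dye, where 44.9% of all genes passed. The cause of these shifts was not tested.

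No paired analysis was possible because each ratio already pairs both cultures of an experiment and no second group exists. With 3 arrays and no intensities, small ratios and dim spots cannot be judged.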

Other observations

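Spots whose clone matches several genes were not members of any count above. Among them, 3 H spots named for both Myl12a and Myl12b, regulatory light chains of non-muscle myosin 2, were at −0.54 ± 0.19, −0.39 ± 0.25 and −0.38 ± 0.15 (SD, n = 3 arrays), and each was below 0 on every array. An H spot shared by Krt9, Krt13, Krt14, Krt15 and Krt19 was at 0.48 ± 0.09, and a spot of the same names in the small collection N of clones was at 1.56 ± 0.39, with values of 1.19, 1.53 and 1.96. The share of N spots called higher is not given here, so that value has no background beside it. A P spot shared by Krt5, Krt6a and Krt6b was at −0.49 ± 0.16. The 2 H spots named for Krt8, the usual partner of Krt18, and for Nlrp4e were at −0.21 ± 0.19 and −0.31 ± 0.11. A spot shared by Actn4 and Psmb6 was at 0.61 ± 0.03, on the other side of 0 from the Actn4 clone at −0.65. These values are ratios without a test, and the gene behind each cannot be told from the clone's names.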
